A study of Homo sapiens with 6 samples.

Results

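The genes described here encode the DNA replication machinery. The 43 members are protein-coding genes that were listed by name and were found by summing the transcript values of each gene symbol in all 6 libraries, out of 33367 genes that could be matched to a symbol. They fall into 6 subunits of the origin recognition complex, 2 licensing factors, 11 helicase genes, 9 polymerase and primase genes, 8 genes of the sliding clamp, its loader, flap removal and ligation, 4 genes of single-strand binding and checkpoint mediation, and 3 genes of nucleotide supply. No measured value served as a criterion for the choice, though the list was drawn up with earlier results of these data known.

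DNA replication starts where the origin recognition complex sits on DNA. CDC6 and CDT1 then load the ring-shaped MCM helicase, a step called licensing, and the ring becomes an active helicase when CDC45 and the GINS complex join it. Polymerase alpha with primase lays down primers, polymerases delta and epsilon extend them on the PCNA clamp, RPA covers the exposed single strands, and FEN1 and LIG1 finish the lagging strand. Most of these genes are transcribed as cells enter S phase, under E2F transcription factors, and dividing erythroid cells carry them at high level.

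The cultures were K562, an established human erythroleukaemia line, taken at day 4. The 2 induced CDAN1 shRNA libraries came from clones c1 and c2, which carry a hairpin RNA against CDAN1 (codanin-1, a partner of the histone chaperone ASF1) and received 1 µg/ml doxycycline to switch the hairpin on. The controls were the same 2 clones without doxycycline, 1 library of the non-targeting (NT) hairpin clone with doxycycline and 1 without it. All clones were held under puromycin, and no culture lacked a hairpin construct. The series was designed to set the induced CDAN1 shRNA clones against these 4 controls. As only 1 of the 4 received doxycycline, that comparison does not separate the hairpin from doxycycline. There is 1 library for each clone and state, and the labels do not say that any state was cultured more than once. A p-value here reflects the variation among the 6 libraries and no more. A clone and its construct cannot be told apart, since NT is a single clone.

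Libraries held between 28318555 and 32352246 estimated reads. CDAN1 stood at 17.0 CPM in induced c1 and 29.8 CPM in induced c2, against 37.0 CPM in uninduced c1, 55.4 CPM in uninduced c2, 70.2 CPM in induced NT and 62.5 CPM in uninduced NT. CPM is the count scaled to a library total of 1e6 after TMM scaling. Erythroid markers were high in every library, with HBG2, a fetal globin, at 12600 to 16130 TPM (a share of all transcripts that accounts for their length). Of the other marker lists, ITGA2B, an integrin of megakaryocytes, reached 66.7 TPM in induced c2 and 72.5 TPM in uninduced c2, against 5.29 to 17.1 TPM in the other 4 libraries, and the platelet chemokine PPBP 11.95 and 15.6 TPM in c2, against 0 to 1.21 TPM. All 6 genes of that megakaryocyte list were highest in the c2 libraries, and their part in what sets c2 apart was not tested. The myeloid markers MPO, S100A8 and S100A9 stayed under 0.5 TPM and the fibroblast genes COL3A1, DCN and LUM likewise in all 6. CD14, of the same myeloid list, reached 1.17 TPM in uninduced c2 and held 0.147 to 0.465 TPM in the other libraries. COL1A1 held 2.98 to 4.25 TPM in c2 and 0.741 to 2.02 TPM in the other 4, and COL1A2 1.32 to 1.5 TPM in c2 and 0.11 to 0.648 TPM in the other 4. LYZ held 57.0 to 84.6 TPM over the 6 libraries and CD68 8.25 to 44.5 TPM.

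The promoters of these genes held E2F sites at a higher share than promoters in general. RefSeq promoter windows of GRCh38.p14, from 250 bases before to 50 after the annotated start, were at hand for 37 members. The windows were searched on both strands for TTTCCCGC, TTTCGCGC, TTTGCCGC and TTTGGCGC, 4 forms of the E2F site, some of which overlap each other when read on opposite strands. At least 1 form was found in 18 of the 37 (48.6%), against 3.33% of 27305 promoters of that length. The nearest match lay within 60 bases of the start in 15 of the 18. CCAAT, the box bound by NF-Y and searched on both strands, was found in 23 of 37 (62.2%), against 35.7% of all promoters. A match is a run of letters and not a measured binding site. The windows of MCM4, MCM5, GINS4, POLD3, RPA2 and RPA3 were not analysed here.

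The following stretches of 68 bases are centred on the match nearest to the start and are shown because they come from 6 of the 7 classes and include 3 genes whose level differed between clones (MCM7, POLA2 and TYMS). Capitals mark the E2F match, and each runs 5′ to 3′ on the strand of its gene. ORC3 lies on the plus strand at chr6:87590093-87590160, CDT1 on the plus strand at chr16:88803724-88803791, MCM6 on the minus strand at chr2:135876492-135876559, MCM7 on the minus strand at chr7:100101369-100101436, POLA2 on the plus strand at chr11:65261879-65261946, PCNA on the minus strand at chr20:5126644-5126711, and TYMS on the plus strand at chr18:657584-657651. In MCM6 the capitals hold 2 overlapping forms, 1 on each strand.
ORC3: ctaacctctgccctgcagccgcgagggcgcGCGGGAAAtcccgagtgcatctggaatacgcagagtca
CDT1: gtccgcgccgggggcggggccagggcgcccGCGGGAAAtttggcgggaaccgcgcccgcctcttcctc
MCM6: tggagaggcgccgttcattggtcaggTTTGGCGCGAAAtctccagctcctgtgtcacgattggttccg
MCM7: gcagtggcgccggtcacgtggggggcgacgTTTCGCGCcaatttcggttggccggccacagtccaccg
POLA2: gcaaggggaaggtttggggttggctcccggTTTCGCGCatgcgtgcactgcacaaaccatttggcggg
PCNA: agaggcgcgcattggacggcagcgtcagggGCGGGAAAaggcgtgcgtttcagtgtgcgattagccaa
TYMS: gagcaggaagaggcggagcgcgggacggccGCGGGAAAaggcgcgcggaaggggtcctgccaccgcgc

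On the TPM scale, which allows levels of different genes to be set side by side, the replication genes spanned a wide range. Each value sums all listed transcripts of a gene, non-coding ones included. On that sum MCM7, a subunit of the MCM ring, was the highest member and averaged 306 ± 38 TPM (SD over 6 libraries). Of the other helicase genes, MCM4 averaged 251 ± 19 TPM and CDC45, which joins the ring at activation, 228 ± 21 TPM. The GINS subunits were at the low end of that class, with means of 20.7 TPM for GINS3 to 26.6 TPM for GINS2. Among the polymerases, POLD2, an accessory subunit of polymerase delta, averaged 229.5 ± 15 TPM and POLD3, another subunit of the same enzyme, 14.0 ± 2.1 TPM. The clamp PCNA averaged 216 ± 9.9 TPM, and the loader subunits lay between 32.6 TPM for RFC1 and 124 TPM for RFC4. Over protein-coding transcripts alone the order changed. The means were then 216 TPM for PCNA, 208 TPM for TYMS, 201 TPM for CDC45, 183 TPM for MCM7, 151 TPM for MCM4 and 133 TPM for POLD2.

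Nucleotide supply was likewise high, with thymidylate synthase TYMS at 279.5 ± 38 TPM and the ribonucleotide reductase subunits RRM2 at 169 ± 12 TPM and RRM1 at 111 ± 6.7 TPM. Over protein-coding transcripts alone RRM2 averaged 90.6 TPM and RRM1 100.3 TPM, so their order turned. Origin recognition genes were lower and close to each other, from 24.1 TPM for ORC2 to 63.6 TPM for ORC6. CDT1 averaged 101 ± 14 TPM and CDC6 45.3 ± 4.3 TPM. The single-strand binding subunits lay between 56.7 TPM for RPA1 and 92.1 TPM for RPA2, with the checkpoint mediator CLSPN (claspin) at 39.8 TPM. PRIM2, the large primase subunit, was listed at only 0.898 to 2.23 TPM on 6 matched transcripts and was the 1 member that did not pass the filter on low counts. Its leading transcript was a non-coding one of 410 bases, and whether the authors' annotation held its usual coding transcripts was not tested, so this value covers the listed transcripts only. Its partner PRIM1 averaged 70.8 ± 3.9 TPM.

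**Figure D1:**
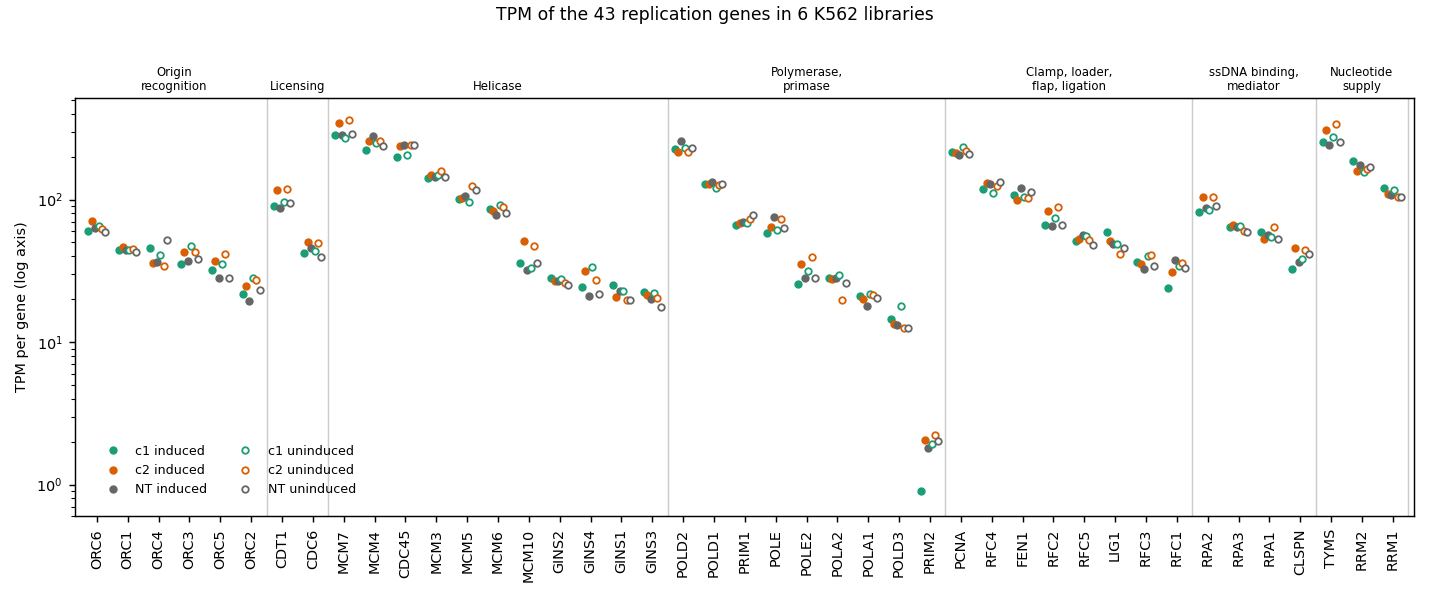
TPM of each of the 43 members (log axis), by class and by falling mean within a class, with filled points for induced and open points for uninduced libraries in c1 (green), c2 (orange) and NT (grey). MCM7, with a mean of 306 TPM, and PRIM2, at 0.898 to 2.23 TPM, mark the ends of the range, and the 6 points of most genes lie close together.

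Summed over all 43 genes, the machinery took 3596 TPM in induced c1, 3871 TPM in induced c2 and 3712 TPM in induced NT, against 3685, 3965 and 3649 TPM in uninduced c1, c2 and NT. The highest of these sums was 1.103 times the lowest. The clamp, loader, flap and ligation class was the most even (680 to 705 TPM) and licensing the least (133 to 169 TPM, with c2 on top in both states). In c2 the licensing sum was 1.257 times that of NT in TPM but 1.066 times in CPM.

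Levels of single genes also stayed close together between libraries. The standard deviation of log2 CPM over the 6 libraries had a median of 0.112 over the 42 members that passed the filter, against 0.208 over all 14075 genes tested. As many of those genes carry few reads, this is a description and not a test. MCM3, another MCM subunit, was the most even at 326 to 339 CPM, and ORC1, the subunit of the origin complex that is most tied to the cell cycle, followed at 116 to 121 CPM. POLD3 (30.2 to 44.9 CPM) and MCM10 (103 to 149.7 CPM), a factor of helicase activation, varied most. The map of levels relative to each gene's mean shows these 2 as the rows with the strongest colour.

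**Figure D2:**
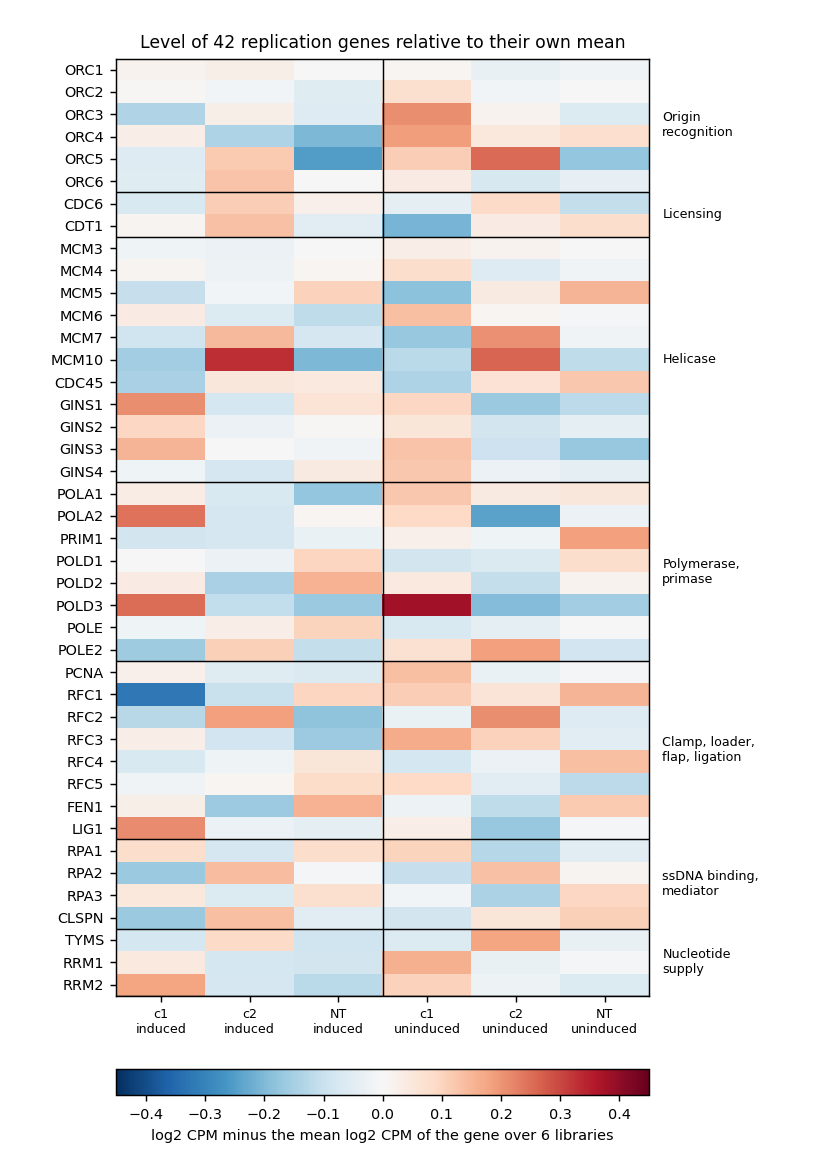
Level of the 42 members in each library as log2 CPM minus the gene's own mean over the 6 libraries (colour scale), induced libraries left of the line and uninduced ones right of it. MCM10 is high in both c2 libraries and POLD3 in both c1 libraries, while the rows of MCM3 and ORC1 are almost without colour.

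Knockdown of CDAN1 came with no called change in any replication gene. Set against the 4 controls, the knockdown libraries (2) gave calls in edgeR's quasi-likelihood test for 0 of 42 members, and for 0% of the 14075 genes. CDAN1 itself was not called in this fit, at 17.0 and 29.8 CPM against 37.0 to 70.2 CPM in the controls. As the fit missed the targeted gene, the absence of calls cannot show that the members were unchanged. At an unadjusted p under 0.05 there were 322 genes, of which 1 was a member, and DESeq2 called 22 genes, 0 of them members. The log2 differences of the members ran from −0.31 to 0.14 with a median of −0.01 (all genes −0.0007), and the median size of the difference was 0.05, against 0.12 over all genes. The 95% interval lay within 0.5 on either side of 0 for 39 of the 42. These intervals leave room for changes smaller than that, and they cover the spread between these libraries only.

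RFC1, the large subunit of the clamp loader, had the smallest p in this comparison. It stood at 81.2 CPM in induced c1 and 94.6 CPM in induced c2, against 109 CPM in uninduced c1, 105.5 CPM in uninduced c2, 108 CPM in induced NT and 113 CPM in uninduced NT. Both knockdown libraries were below every control, and induced c1 was the lowest of the 6. The log2 difference was −0.31 ± 0.09 (SE, 2 against 4 libraries; adjusted p = 1, edgeR). With the clone as a replicate block it was −0.29 ± 0.08 (adjusted p = 0.261, edgeR), the lowest adjusted p of any member there. The blocked fit holds no term for doxycycline, so within c1 and c2 it sets induced against uninduced. That fit called 6 genes of all those tested (0.0426%) and 0 members.

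By class, the medians in the knockdown comparison lay between −0.04 for the clamp, loader, flap and ligation genes and 0.07 for the licensing pair. Groups did not overlap for 4 of 42 members (9.52%), against 9.56% of all genes. ORC1 was higher in both knockdown libraries than in any control (120 and 121 CPM against 116 to 119 CPM), and MCM3, PRIM1 and RFC1 were lower. For MCM3 the gap was small, as the knockdown libraries held 327 and 326 CPM, against 331 to 339 CPM in controls.

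Doxycycline induction, taken over the 3 clones, gave the same picture. In 3 induced against 3 uninduced libraries edgeR called 0 of 42 members, as it called 0% of all genes (217 genes at an unadjusted p under 0.05, 0 of them members; DESeq2 called 6 genes and 0 members). All 42 intervals lay within 0.5 of 0. Blocking on the clone raised this to 18 genes (0.128%), again with 0 members. The smallest p belonged to ORC4, a subunit of the origin recognition complex.

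ORC4 stood at 74.9 CPM in induced c1, 66.7 CPM in induced c2 and 63.8 CPM in induced NT, against 83.7, 75.8 and 77.3 CPM in uninduced c1, c2 and NT. Every induced library was below every uninduced one. The log2 difference was −0.21 ± 0.09 (SE, n = 3 each; adjusted p = 1, edgeR) and −0.21 ± 0.05 with the clone as a replicate block (adjusted p = 0.202, edgeR). ORC4, MCM3, POLA1 (the catalytic subunit of polymerase alpha) and PRIM1 (the catalytic primase subunit) had non-overlapping groups, all lower when induced. These 4 of 42 members are 9.52%, against 6.32% of all genes. POLA1 held 98.0, 91.3 and 84.8 CPM in induced c1, c2 and NT, against 104, 98.5 and 99.2 CPM in the uninduced libraries of the same clones. PRIM1 held 67.8, 68.1 and 70.4 CPM induced, against 72.9, 70.8 and 81.6 CPM uninduced. In both the NT clone moved most, with a log2 response of −0.23 for POLA1 and −0.21 for PRIM1.

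Clone by clone, the induction response is 1 library against 1 and carries no test. Past 0.32 on the log2 scale in either direction (a ratio of 5 to 4) were 2 of 42 members in c1, against 25.5% of all genes, 0 members in c2, against 18.9%, and 0 in NT, against 20.4%. Both in c1 were lower when induced. The response of RFC1 was −0.43, −0.16 and −0.06 in c1, c2 and NT. ORC3, a subunit of the origin recognition complex, had −0.35 in c1, 0.01 in c2 and 0.00 in NT, with 64.5 CPM in induced c1 against 82.1 CPM in uninduced c1. Uninduced c1 was the high value here, as the other 5 libraries lay between 64.5 and 72.2 CPM.

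The response had the same sign in all 3 clones for 21 of 42 members, 7 higher and 14 lower, against 37.7% of all genes. The median response was −0.04 in c1, 0.01 in c2 and −0.03 in NT. By class, the 3 nucleotide supply genes had a median response of −0.02 in c1, of −0.05 in c2 and of −0.06 in NT. The licensing pair stood at 0.10, 0.06 and 0.00 in c1, c2 and NT.

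**Figure D3:**
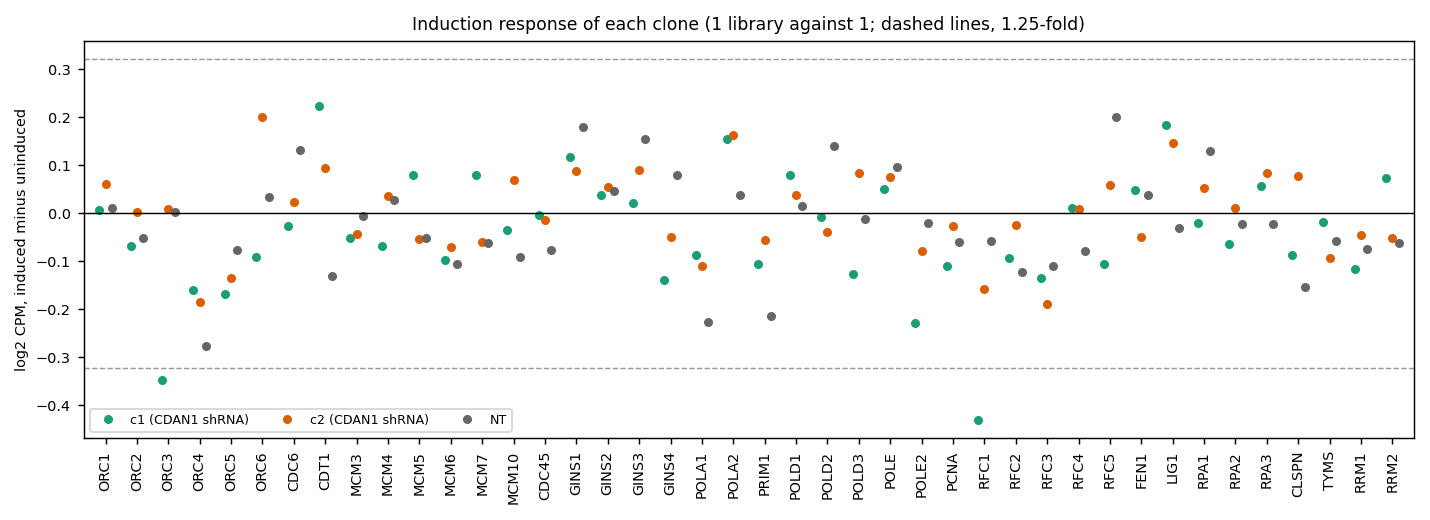
Induction response of each of the 42 members in c1 (green), c2 (orange) and NT (grey), as log2 CPM of the induced minus the uninduced library. RFC1 and ORC3 in c1 are the only points beyond the dashed lines at 0.32, a ratio of 5 to 4.

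Whether the CDAN1 shRNA clones responded otherwise than NT was tested as a difference of responses, and it was not detectable in any member. edgeR called 0 of 42 members and 0% of all genes (79 genes at an unadjusted p under 0.05, 0 of them members; DESeq2 called 5 genes and 0 members). This contrast rests on 1 NT pair and is wide: the intervals reached from −1.21 to 1.17 and only 10 of 42 lay within 0.5 of 0. Blocking on the clone gave 19 genes (0.135%), 0 of them members, and 38 intervals lay within 0.5. CDT1 had the largest value. It stood at 201 CPM in induced c1 and 218 CPM in induced c2, against 172 and 204 CPM in the same clones uninduced, while NT held 192 CPM induced against 210.2 CPM uninduced. The difference of responses was 0.29 ± 0.21 (SE; adjusted p = 1, edgeR), and 0.29 ± 0.11 with the clone as a replicate block (adjusted p = 0.879, edgeR).

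Differences between clones touched single genes of most classes. Their median size over the members was 0.11 for c1 against NT, 0.08 for c2 against NT and 0.15 for c1 against c2 on the log2 scale (all genes 0.23, 0.20 and 0.21). Each clone is represented by its induced and its uninduced library, which are not true replicates. In c1 against NT, edgeR called 4 of 42 members, against 20.7% of all genes. They were 2 higher (9.87% of all genes) and 2 lower (10.8%). In c2 against NT it called 5, 4 of them higher and 1 lower, against 15.1% of all genes (8.87% higher, 6.21% lower). In c1 against c2 it called 8, with 2 higher and 6 lower, against 20.3% (8.1% higher, 12.2% lower). As shares of the 42 members these are 9.52%, 11.9% and 19%, the last close to its background, and 30 members were called in none of the 3 comparisons. With the doxycycline state as a replicate block the counts were 6, 7 and 12 (14.3%, 16.7% and 28.6%, against 27.8%, 21.1% and 26.8% of all genes), so that in c1 against c2 the share of members then stood slightly above the background. The CPM of the pairs did not overlap for 25 members in c1 against NT (61.2% of all genes), 19 in c2 against NT (62.6%) and 30 in c1 against c2 (60.2%).

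Many of these calls ended when 1 library was left out, also where that library belonged to neither clone compared. Each such fit also has fewer libraries to measure the spread, so an ended call does not show that 1 library carried the difference. In c1 against NT the count of 4 dropped to 0 without the induced or without the uninduced NT library, and to 2 without either c2 library. In c2 against NT the count of 5 dropped to 1 without either NT or either c2 library. In c1 against c2 the count of 8 dropped to 1 without uninduced c2, 3 without induced c2, 4 without uninduced NT, and 5 without induced NT or induced c1. Only MCM10 was called, in both of its comparisons, without each of the libraries in turn and under every other setting tried. Transcript length as an offset ended every call of MCM5, POLD3, POLA2, RFC2, RPA2, TYMS and RRM2, and that of CDC45 in c1 against c2.

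**Figure D4:**
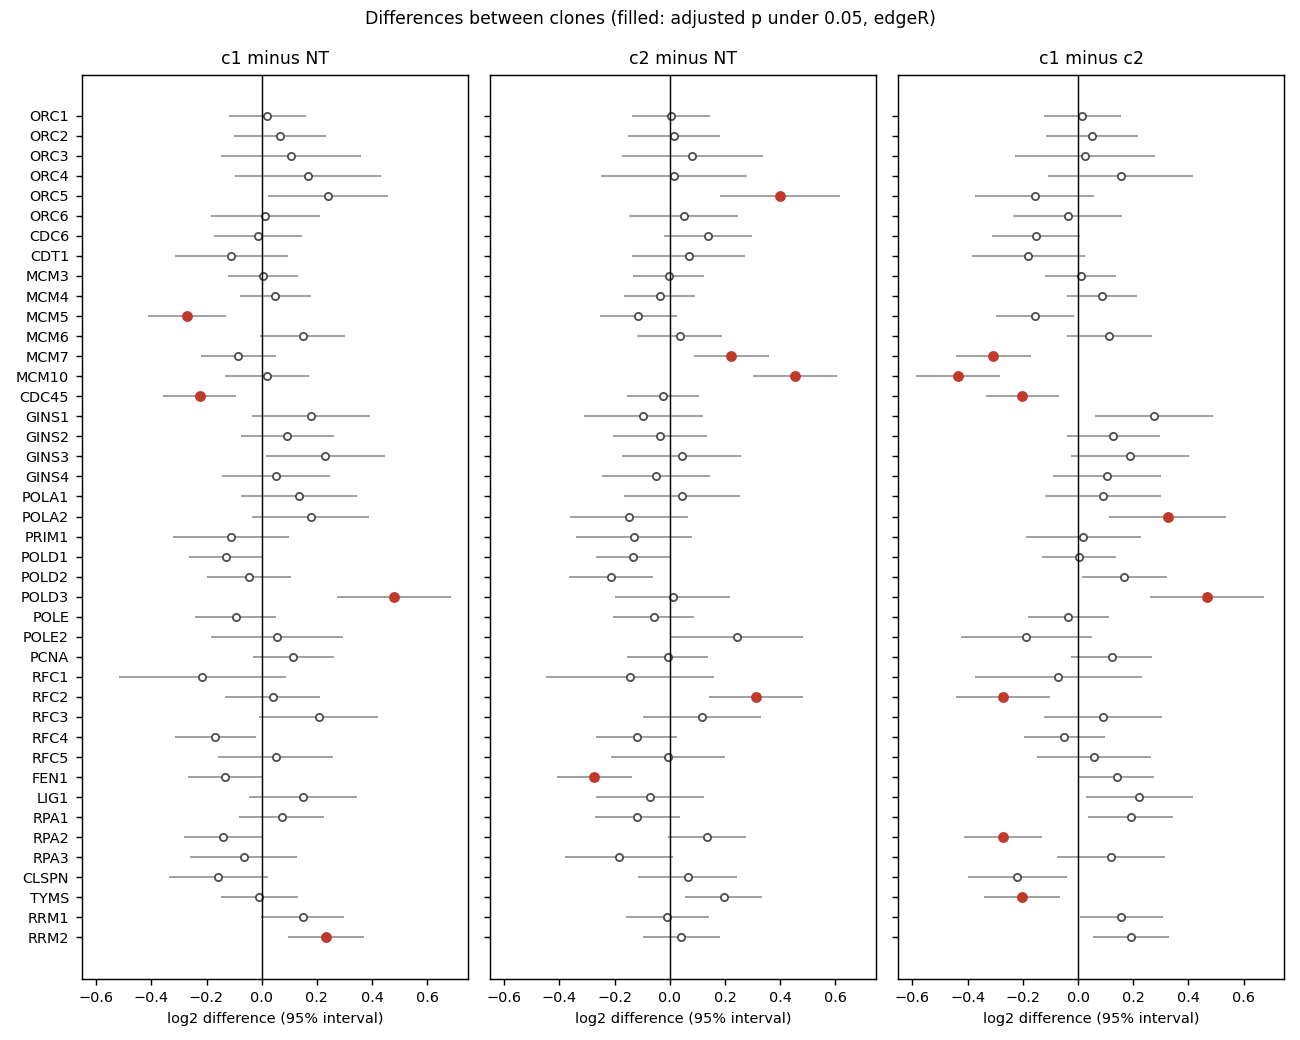
Log2 difference of each of the 42 members between clones with its 95% interval, in c1 minus NT, c2 minus NT and c1 minus c2, with filled red points for an adjusted p under 0.05 (edgeR). Filled points number 4, 5 and 8, led by POLD3 in c1 and MCM10 in c2.

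Among origin recognition and licensing genes, ORC5 alone was called. ORC5, which binds ATP within the origin recognition complex, held 48.7 CPM in induced and 54.75 CPM in uninduced c1, 55.0 and 60.4 CPM in c2, and 42.6 and 44.9 CPM in NT. Both c2 libraries were above both NT libraries, by 0.40 ± 0.09 on the log2 scale (SE, n = 2 each; adjusted p = 0.0269, edgeR). The value in c1 against NT was 0.24 ± 0.09 (adjusted p = 0.108, edgeR). The other 5 origin recognition genes had log2 differences from NT between 0.01 and 0.17 in c1. CDC6 and CDT1 stayed within 0.14 of NT in both clones.

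Helicase genes, the largest class, held the most calls, in both directions. They were 2 of 11 in c1 against NT, 2 of 11 in c2 against NT and 3 of 11 in c1 against c2. Of all genes, 20.7%, 15.1% and 20.3% were called in these comparisons, so the counts say nothing particular of the class. MCM10, called higher in c2, stood at 107 CPM in induced and 109 CPM in uninduced c1, 149.7 and 142.6 CPM in c2, and 103 and 110 CPM in NT. The c2 libraries lay above the other 4 with a wide gap, by 0.46 ± 0.07 on the log2 scale against NT (adjusted p = 0.00396, edgeR). For c1 against c2 the difference was −0.44 ± 0.07 (adjusted p = 0.00347, edgeR).

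MCM7 was also high in c2, with 640.1 CPM in induced and 605 CPM in uninduced c1, 754 and 787 CPM in c2, and 646 and 675 CPM in NT. The log2 difference was 0.22 ± 0.06 for c2 against NT (adjusted p = 0.0416, edgeR) and −0.31 ± 0.06 for c1 against c2 (adjusted p = 0.00944, edgeR). MCM5, another subunit of the same ring, went the other way in c1, at 206 CPM induced and 195 CPM uninduced. It held 219 and 227.5 CPM in c2 and 238 and 246 CPM in NT, and c1 was lower than NT by a log2 value of −0.27 ± 0.06 (adjusted p = 0.0189, edgeR).

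CDC45 held 273 CPM in induced and 274 CPM in uninduced c1, 313 and 316 CPM in c2, and 311 and 328 CPM in NT. Both c1 libraries were below the other 4. The difference was −0.23 ± 0.06 for c1 against NT (adjusted p = 0.0285, edgeR) and −0.20 ± 0.06 for c1 against c2 (adjusted p = 0.0417, edgeR). The call in c1 against NT ended without either c2 library. The call in c1 against c2 ended without either NT library, with the length offset and with unmatched transcripts kept. Without 1 library the differences ran from −0.27 to −0.19 and from −0.23 to −0.20. Of the 4 GINS genes none was called, nor were MCM3, MCM4 and MCM6. GINS1 came nearest at 0.28 ± 0.09 for c1 against c2 (adjusted p = 0.0741, edgeR).

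Of the polymerase genes, 2 were called. POLD3, the subunit of polymerase delta that binds PCNA, held 41.1 CPM in induced and 44.9 CPM in uninduced c1, against 32.0 and 30.2 CPM in c2 and 30.7 and 31.0 CPM in NT. Both c1 libraries stood clear of the other 4. The log2 difference was 0.48 ± 0.09 for c1 against NT (adjusted p = 0.00956, edgeR) and 0.47 ± 0.09 for c1 against c2 (adjusted p = 0.00909, edgeR). With transcript length as an offset both calls ended, though the differences were still 0.35 and 0.40 (adjusted p = 0.11 and 0.0811, edgeR). POLA2, the regulatory subunit of polymerase alpha, held 66.6 CPM in induced and 59.8 CPM in uninduced c1, 53.35 and 47.6 CPM in c2, and 56.6 and 55.2 CPM in NT. It was higher in c1 than in c2 by 0.32 ± 0.09 (adjusted p = 0.0431, edgeR). The catalytic subunits POLA1, POLD1 and POLE had differences between −0.13 and 0.14 in all 3 comparisons, and none was called.

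In clamp loading and flap removal 1 gene each was called. RFC2, a small subunit of the clamp loader, held 77.9 CPM in induced and 83.1 CPM in uninduced c1, 96.4 and 98.05 CPM in c2, and 74.98 and 81.6 CPM in NT. The c2 libraries were the highest 2, by 0.31 ± 0.07 on the log2 scale against NT (adjusted p = 0.0278, edgeR) and −0.27 ± 0.07 for c1 against c2 (adjusted p = 0.0368, edgeR). FEN1, the nuclease that trims flaps from lagging strand fragments, was lowest in c2, at 177 CPM induced and 183 CPM uninduced. It held 201 and 195 CPM in c1 and 220.3 and 214.5 CPM in NT, and c2 against NT gave −0.27 ± 0.06 (adjusted p = 0.0187, edgeR). PCNA and the other loader subunits were not called, nor was the ligase LIG1.

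RPA2, the middle subunit of the single-strand binding protein RPA, held 103 CPM in induced and 108 CPM in uninduced c1, 128 and 127 CPM in c2, and 115 and 117 CPM in NT. The pairs of libraries did not overlap, and c1 was lower than c2 by a log2 value of −0.27 ± 0.06 (adjusted p = 0.0177, edgeR). RPA1 and RPA3 pointed the other way in the same comparison, at 0.19 ± 0.07 and 0.12 ± 0.09, and neither was called.

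In nucleotide supply, TYMS, which makes thymidylate, held 289 CPM in induced and 292 CPM in uninduced c1, against 324 and 345 CPM in c2 and 286 and 298 CPM in NT. It was lower in c1 than in c2 by −0.20 ± 0.06 (adjusted p = 0.0487, edgeR), a call that ended without any 1 of the 6 libraries. RRM2, the small subunit of ribonucleotide reductase that limits the enzyme outside S phase, held 311 CPM in induced and 295 CPM in uninduced c1, against 261 and 270.1 CPM for c2 and 252 and 263 CPM for NT. It was higher in c1 than in NT by 0.23 ± 0.06 (adjusted p = 0.0308, edgeR). With transcript length as an offset the same difference was 0.00 and the call ended. RRM1, the large subunit, stood at 0.15 ± 0.06 in that comparison and was not called.

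Several of the called genes lie among neighbours that differed between clones in the same way. In c2 against NT, the 705 tested genes of chromosome 7 had a median log2 difference of 0.14. ORC5 (chromosome 7, 104126341 to 104208047 on GRCh38) at 0.40, MCM7 (100092728 to 100101940) at 0.22 and RFC2 (74231499 to 74254458) at 0.31 all lie on its long arm. The genes within 10 Mb of them had medians of 0.18, 0.21 and 0.25. The windows of ORC5 and MCM7 overlap, so their medians are not separate instances. POLD2 and RPA3, on the short arm of that chromosome, had −0.21 and −0.18 in c2 against NT, where their neighbours had medians of 0.04 and −0.03. For MCM10 (chromosome 10, 13161554 to 13211104) at 0.46, the 73 genes within 10 Mb had a median of 0.31, and 45.2% of them were called.

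For c1 against NT, most called genes lay among neighbours with medians near 0. POLD3 (chromosome 11, 74493851 to 74669117) stood at 0.48 where its neighbours had a median of −0.05. MCM5 and CDC45, both on chromosome 22, stood at −0.27 and −0.23 among neighbours with medians of −0.04 and −0.03. RRM2 stood at 0.23 among neighbours with a median of 0.12. Set against the neighbours' medians, the median size of the difference over the called members was 0.21 in place of 0.25 in c1 against NT, 0.14 in place of 0.31 in c2 against NT, and 0.15 in place of 0.29 in c1 against c2. Called members were selected for large differences. Over all 42 members the median size was 0.09 in place of 0.11, 0.05 in place of 0.08 and 0.10 in place of 0.15. The part of the neighbourhood in these differences was not tested.

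**Figure D5:**
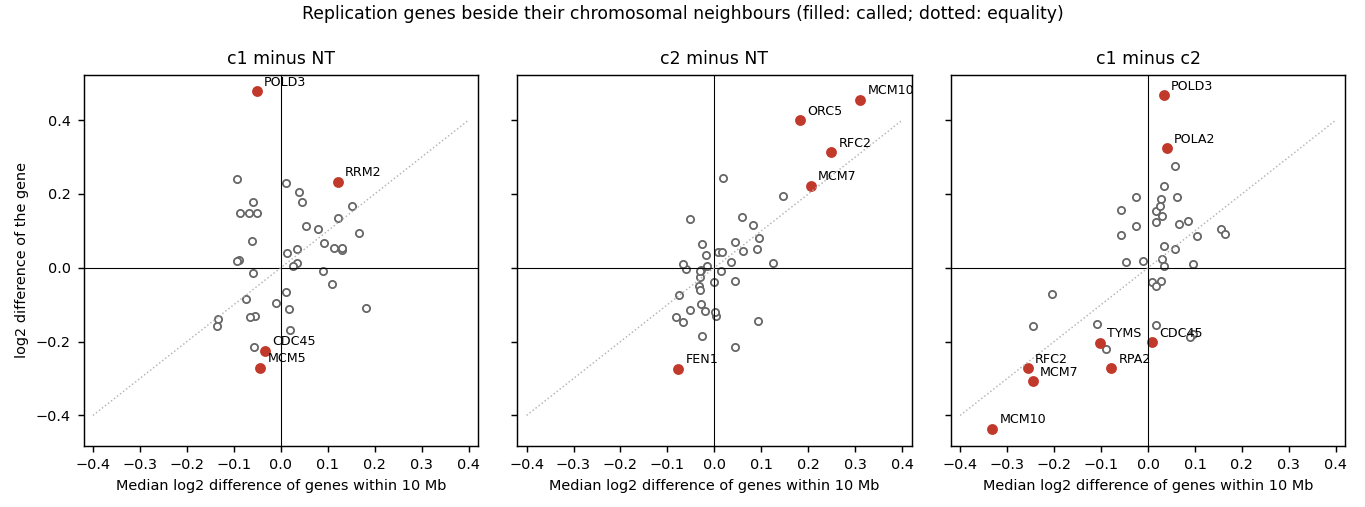
Log2 difference of each of the 42 members between clones (vertical) against the median log2 difference of tested genes within 10 Mb (horizontal), with filled red points for called members and a dotted line of equality. In c2 minus NT, ORC5, MCM7, RFC2 and MCM10 lie in the upper right with neighbours at 0.18 to 0.31, while POLD3 in c1 minus NT lies above neighbours at −0.05.

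At the level of transcripts, the leading transcript was protein coding in 42 of 43 members, PRIM2 being the exception. It held at least 90% of the gene's TPM in every library in 6 members, and under 50% in some library in 15. The following transcripts were chosen after their values were seen. CDT1-202, a retained-intron transcript of 735 bases, held 21.3 TPM in induced and 40.3 TPM in uninduced c1, 40.4 and 45.4 TPM in c2, and 18.2 and 21.2 TPM in NT. The coding CDT1-201 held 68.9 and 55.55 TPM in c1, 74.98 and 69.7 TPM in c2, and 66.9 and 70.6 TPM in NT. The c2 libraries held the highest values of the retained-intron form, with uninduced c1 next to them, while the coding form overlapped between c2 and NT.

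RRM2-209, a retained-intron transcript of 644 bases, held 53.85 TPM in induced and 9.41 TPM in uninduced c1, 24.6 and 25.2 TPM in c2, and 56.4 and 49.2 TPM in NT. Uninduced c1 was the low library. The coding RRM2-201 held 95.4 and 97.5 TPM in c1, 85.8 and 89.5 TPM in c2, and 75.8 and 78.2 TPM in NT, without overlap between clones. In ORC2 the share of the coding ORC2-201 was higher in the induced library of each clone, at 69.85% against 52.7% uninduced in c1, 60.1% against 53.5% in c2 and 72.4% against 57.2% in NT. Its own TPM moved little (14.1 to 15.1 TPM induced, 13.4 to 14.8 TPM uninduced). The other side of that share was ORC2-206, a non-coding transcript of 551 bases with 22.5, 36.8 and 5.94 estimated reads in induced c1, c2 and NT, against 57.0, 57.6 and 25.6 reads uninduced. GINS4-207, a retained-intron transcript of 375 bases, had 21.0 to 46.05 reads in the CDAN1 shRNA libraries and was listed at 0 in both NT libraries. GINS4-205, another retained-intron transcript, ran the other way, listed at 0 in the 4 CDAN1 shRNA libraries and with 16.2 and 23.4 reads in induced and uninduced NT.

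Genes that act around the machinery, in 5 lists of 46 genes in all, were tested in the same fits. None was called in the knockdown, induction or response comparison. In c1 against NT, 5 of 46 were called higher and 3 lower, in c2 against NT 4 and 2, and in c1 against c2 5 and 3. These are 17.4%, 13% and 17.4% of the lists, against 20.7%, 15.1% and 20.3% of all genes, shares near the background that say nothing particular of the lists. Among the 9 genes that control licensing and firing, GMNN (geminin, the inhibitor of CDT1) was higher in c1 than in NT by 0.31 ± 0.06 and MCMBP, a binding partner of the MCM ring, by 0.30 ± 0.07. TICRR, which brings CDC45 to origins, was lower in c1 than in NT by −0.57 ± 0.08 and lower than in c2 by −0.64 ± 0.08. DBF4, the activator of the CDC7 kinase, was higher in c2 than in NT by 0.38 ± 0.10, and CDC7 higher in c1 than in c2 by 0.32 ± 0.08.

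Of the 10 fork genes, TIPIN, a fork protection factor, was lower in c1 than in NT by −0.45 ± 0.11 and lower than in c2 by −0.56 ± 0.11. POLE3, a small subunit of polymerase epsilon, was higher in c1 than in NT by 0.26 ± 0.06 and higher than in c2 by 0.39 ± 0.06. The topoisomerase TOP1 was higher than in NT in c1 (0.26 ± 0.06) and in c2 (0.22 ± 0.06), and the helicase RTEL1 was lower in c2 than in NT (−0.39 ± 0.07).

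Among the 8 further nucleotide genes, DUT, which removes dUTP, stood at 114.8 CPM in induced and 115 CPM in uninduced c1, against 171.5 and 173 CPM in c2 and 165 and 171 CPM in NT. The c1 libraries lay far below the other 4, with −0.55 ± 0.06 for c1 against NT and −0.59 ± 0.06 for c1 against c2. Thymidine kinase TK1 was low in c2 (172 CPM in induced and 171 CPM in uninduced c1, 119.6 and 125 CPM in c2, 176 and 175 CPM in NT), by −0.52 ± 0.06 against NT and 0.49 ± 0.06 for c1 against c2. Deoxycytidine kinase DCK was higher in c2 than in NT by 0.45 ± 0.10, and SAMHD1, which breaks down nucleotides, higher in c1 than in c2 by 0.54 ± 0.13. No gene of the list of 9 G1 to S regulators was called in any comparison. Of 10 genes of G2 and M, PLK1 was called once (0.22 ± 0.06 in c1 against c2). All of these calls have an adjusted p under 0.05 (edgeR).

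Some values carry a limit of the counting. The strand of the libraries is not given in the sources used here, and 10 members have an exon that overlaps a tested gene on the opposite strand, among them GINS2 with GSE1, RFC4 with EIF4A2 and TYMS with ENOSF1. PRIM1 overlaps NACA and FEN1 overlaps FADS2 on the same strand. Of 8 members with named pseudogenes, RRM2 had the most reads there, at up to 1.43% of its own.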

How the data were processed

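Total RNA of 6 K562 cultures had been made into libraries with the NEBNext Ultra RNA kit, per the labels' protocols. The authors used Salmon 1.5.2 with build GRCh37 (hg19), per the submitters' processing notes. For each of 167268 transcripts the deposited values are an estimated count of reads and a TPM, per the file headers. Which annotation and strand setting were used is not given in the sources used here.

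Estimated counts were summed to genes by GENCODE 29 identifiers, which also gave names and GRCh38 coordinates, and were rounded. The 16229 unmatched transcripts (6.23% to 6.5% of reads) were left out. A filter (10 reads at the library's scale in at least 2 libraries, 15 in all) left 14075 of 21165 genes with a count above 0. Tests used edgeR 4.0.16 (quasi-likelihood, TMM, two-sided, Benjamini-Hochberg adjustment over all genes tested, threshold 0.05) in R 4.3.3. They were also run on simulated counts that held no background differences between clones. That run therefore cannot vouch for the main knockdown and induction fits, which leave the clone out. The response contrast was not simulated. CPM and log2 values used TMM, the latter with a prior count of 2. Alternatives were DESeq2 1.42.0, other scaling, no filter, transcript length as an offset, unmatched transcripts kept, libraries left out and replicate blocks. Groups came from the sample titles. For clone c2 the names of the deposited data carry a different clone number than the titles, and the titles were followed.

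Induced and uninduced libraries of a clone come from the same cells, so the clone pairs them. Deviations from the group means correlated within each clone (r = 0.679 in c1, 0.741 in c2, 0.608 in NT, across genes) and not between clones (−0.477 to −0.196, values that centring on 3 libraries pushes below 0). Every value is given for members called in a clone comparison, and other members are named where they were extreme, which was seen from their values. The members, the classes and the gene lists were chosen with earlier results of these data known. A result for 1 gene of the nucleotide list is not reported here.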

Additional observations from a re-analysis of the deposited data

Results flagged for a closer look

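In 42 members, the 4 controls of the knockdown comparison were examined for a library far from the others. The gap of the furthest library to its neighbour, as a share of the whole range, passed Dixon's 95% critical value for 2 genes, and chance alone flags about 1 in 20. For MCM10 the share was 0.83, with uninduced c2 at 142.6 CPM and the other 3 controls at 103 to 110 CPM. Induced c2, outside that group, was as high at 149.7 CPM. For POLD3 the share was 0.944, with uninduced c1 at 44.9 CPM and the other 3 controls at 30.2 to 31.0 CPM. Induced c1 stood at 41.1 CPM.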

How the results depend on the processing

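The count of 0 members in the knockdown, induction and response comparisons held under every setting run, with the clone as a replicate block, by DESeq2 and without each library in turn, though in the response comparison neither NT library could be left out. For the clones, members called numbered 4 in c1 against NT, but 1 with transcript length as an offset and 0 to 4 without 1 library. They numbered 5 in c2 against NT, but 2 with unmatched transcripts kept and 1 to 5 without 1 library. They numbered 8 in c1 against c2, but 2 with the length offset, 4 with unmatched transcripts kept and 1 to 8 without 1 library. The cause was not tested. Of the 204 values that the 17 calls of members took under other settings, 128 kept their call and 76 lost it, and none turned its sign.

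Some ratios of class sums, c2 over NT, moved when taken in CPM by more than the spread (SD of the TPM sum over its mean). They were 0.960 against 1.017 in TPM for the clamp class, 1.066 against 1.257 for licensing, 1.06 against 1.122 for nucleotide supply, 0.998 against 1.11 for single-strand binding and 1.014 against 1.065 for all members. Helicase (1.042 against 1.086), origin recognition (1.051 against 1.083) and polymerase and primase (0.935 against 0.958) moved by less than their spread. Over all genes, calls in the knockdown, induction and response comparisons numbered 0, but 22, 6 and 5 by DESeq2. With the clone as a replicate block edgeR called 6, 18 and 19. DESeq2 with the same block called 113, 143 and 8. Without 1 library, an alternative added after seeing the data, blocked calls ran from 0 to 166 for knockdown and from 3 to 166 for induction. The clone comparisons called 2909, 2122 and 2851 genes, but 1810, 1380 and 1890 with the length offset and 1928, 1218 and 1783 with unmatched transcripts kept. PRIM2 was tested only in the fit without a filter, where 0 of 43 members were called in the knockdown, induction and response comparisons. It had up to 8.07 reads for its leading transcript in any library, too few for its result to be read.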

Other observations

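Among the G1 to S genes, RBL1 (p107, a pocket protein that binds E2F factors) was low in both knockdown libraries, at 33.3 CPM in induced c1 and 34.3 CPM in induced c2, against 47.9 CPM in uninduced c1, 48.4 CPM in uninduced c2, 44.0 CPM in induced NT and 45.0 CPM in uninduced NT. The groups did not overlap. Its log2 difference was −0.45 ± 0.09 (SE, 2 against 4 libraries), with adjusted p = 1, or adjusted p = 0.104 with the clone as a replicate block (edgeR), so it was not called. The response was −0.52 in c1, −0.50 in c2 and −0.03 in NT. AURKA, a mitotic kinase, had −0.26 ± 0.09 in the same comparison and was not called either. Both were picked from the lists after their values were seen.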
